A study of Macaca mulatta with 24 samples.

Results

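The 8 genes described here encode the receptor and the main enzymes of endocannabinoid signaling in the brain, namely *CNR1*, *DAGLA*, *DAGLB*, *MGLL*, *ABHD6*, *ABHD12*, *NAPEPLD* and *FAAH*. They were chosen by symbol and were 8 of the 17208 gene symbols measured.

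Endocannabinoids are lipids made on demand in the membrane of a postsynaptic neuron, and they act backwards across the synapse on the CB1 receptor, encoded by *CNR1*, where they lower transmitter release. The 2 ligands are 2-arachidonoylglycerol (2-AG), made by the diacylglycerol lipases *DAGLA* and *DAGLB* and broken down by *MGLL*, *ABHD6* and *ABHD12*, and anandamide, for which *NAPEPLD* encodes a synthetic and *FAAH* the main degrading enzyme. In the striatum, of which the nucleus accumbens (NAcc) is the ventral portion, the system is known for synaptic depression at excitatory and inhibitory inputs onto medium spiny neurons.

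RNA-Seq was performed on the NAcc core of 24 unrelated adult male rhesus macaques, 8 controls, 8 low or binge drinkers (LD*) and 8 heavy or very heavy drinkers (HD*, made up of 4 HD and 4 VHD animals). Drinkers were induced to self-administer 4% (w/v) ethanol over 4 months and then had it beside water for 22 h a day during 12 months of open access. Controls went through the same procedures with water alone and a 10% maltose dextrin solution for calories, and all tissue was taken without imposed abstinence. Each animal gave 1 library, made from a small dissected piece that held all cell types of the core. Daily ethanol intake ran from 0.47 to 2.07 g/kg in LD*, from 2.74 to 3.09 g/kg in HD and from 3.09 to 3.78 g/kg in VHD animals. Cohort was uneven across groups. Both animals of cohort 4 were LD*, cohort 5 had 3 controls beside 4 HD*, cohort 7a had 2 controls, 3 LD* and 4 HD*, and cohort 7b had 3 controls and 3 LD*.

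Values are TPM, transcript abundances scaled for length, so that levels can be set side by side between genes, and scaled to 1 fixed total per animal, so that they do not show how many reads they rest on. One library stood apart from the rest in its markers of striatal neurons. In control 6, of cohort 7b, 10 markers of striatal projection neurons summed to 768 TPM, against 3518 TPM or more in the other animals. In 7 libraries (LD* 2, LD* 4, LD* 6, control 2, control 7, HD* 3 and HD* 7) *SLC17A7*, a vesicular glutamate transporter of cortical excitatory neurons, stood above 80 TPM and reached 722 TPM. In tissue of this kind, fewer cells of a type and less RNA per cell cannot be told apart.

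All 8 genes were well expressed, with means over the 24 animals from 13.4 to 225 TPM. *ABHD12*, a serine hydrolase that removes a minor share of brain 2-AG, had the highest mean at 225 TPM, above 95.2% of all genes. *MGLL*, the principal 2-AG hydrolase, followed at 134 TPM, *FAAH* at 102 TPM and *ABHD6* at 57.8 TPM. *DAGLA*, the dominant 2-AG synthase of the adult brain, stood at 38.3 TPM, *CNR1* at 34.5 TPM and *DAGLB* at 22.8 TPM. *NAPEPLD* was lowest at 13.4 TPM, near the middle of all genes (52.0%). Each of the 3 hydrolases of 2-AG was therefore above both of its synthases in mean TPM, and for anandamide the degrading enzyme was above the synthetic one.

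Several neighbours in this order were not separated beyond the spread between animals. *ABHD12* was above *MGLL*, and *ABHD6* above *DAGLA*, in 24 of 24 animals. *FAAH* was above *ABHD6* in 23 animals and *DAGLB* above *NAPEPLD* in 22. By contrast, *MGLL* was above *FAAH* in 19 animals, and *DAGLA* above *CNR1* in 15, where the mean log2 ratio of 0.31 was smaller than its SD of 0.66. *CNR1* was above *DAGLB* in 18 animals with a mean log2 ratio of 0.45 ± 0.59 (SD).

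*CNR1* was the most variable of the 8 genes. Its highest value was 7.24 times its lowest, and the SD of its log2(TPM + 1) over the 24 animals, 0.76, exceeded that of 96.3% of the 13637 genes tested. *ABHD12* was the steadiest, with a highest value 1.75 times the lowest and an SD of 0.23. For the other 6 genes the SD lay between 0.31 and 0.42, and the highest value between 2.40 and 3.65 times the lowest.

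**Figure D1:**
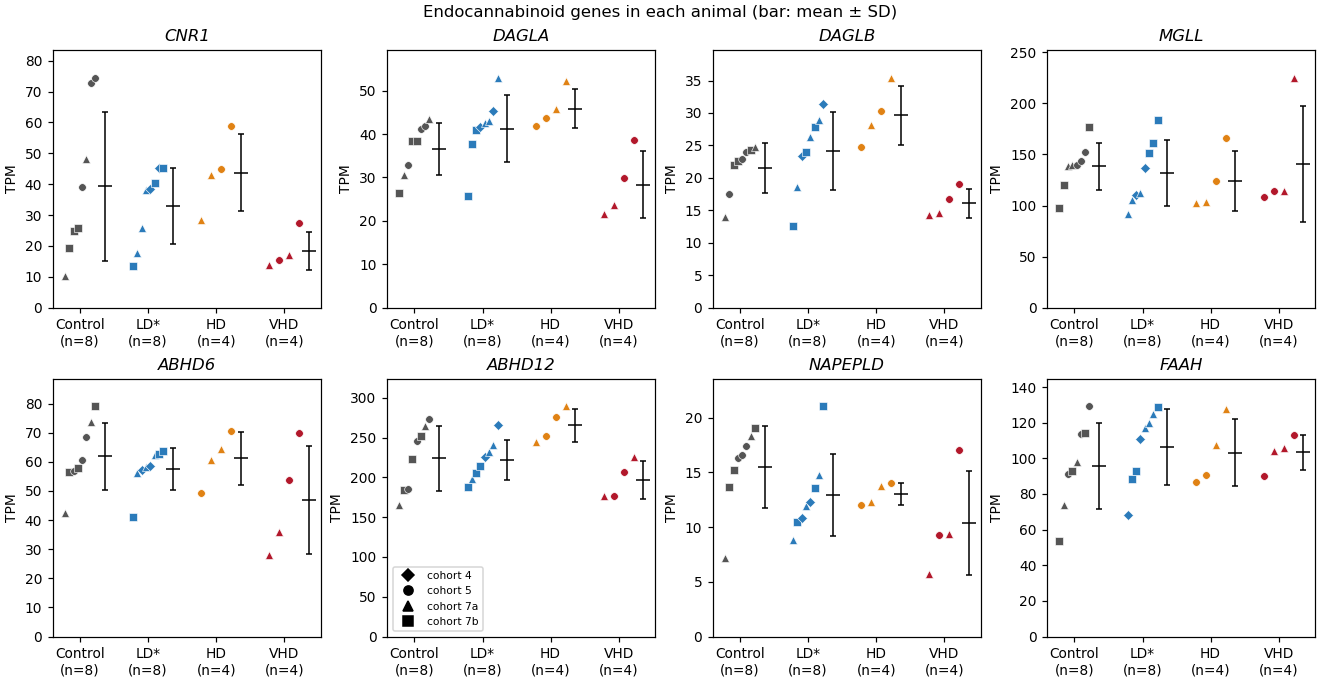
TPM (vertical axes, from 0) of the 8 genes in each of 24 animals, with 1 point per animal, symbols for cohort, and bars for the mean ± SD of controls (n = 8), LD* (n = 8), HD (n = 4) and VHD (n = 4). *CNR1*, *DAGLA*, *DAGLB* and *ABHD12* lie lower in all 4 VHD than in all 4 HD animals, while controls and LD* overlap for every gene.

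The first question was whether drinkers differed from controls. None of the 8 genes did so at an adjusted p under 0.05 in limma on TPM, and neither did any other gene. The paper's own DESeq2 test, made on read counts of these animals, did call genes in HD* against controls, and a few in HD* against LD*. In HD* against controls it lists *CNR1* among the genes that were lower. The paper's pathway analysis of the called genes also gave the endocannabinoid neuronal synapse as a pathway inhibited in HD animals. The reason for the difference between the tests was not tested. limma on log2(TPM + 1) called 0% of the 13637 genes that averaged 1 TPM or more, a filter that all 8 members passed, for either drinking group against controls and for HD* against LD*. Before adjustment, p fell under 0.05 for 775 genes (5.68%) in HD* against controls, 387 (2.84%) in LD* against controls and 147 (1.08%) in HD* against LD*, with 0 of the 8 members in each. The 3 comparisons share animals, so their values are not independent. In all 3 the values of every member overlapped between groups, and groups without overlap made up 0%, 0% and 0.00733% of all genes.

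For the receptor, *CNR1* was 10.3 TPM in the lowest control, 32.5 TPM at the median and 74.6 TPM in the highest. LD* animals ran from 13.6 TPM through a median of 38.3 TPM to 45.1 TPM. HD* animals ran from 13.8 TPM through a median of 28.0 TPM to 58.9 TPM. The 3 ranges lay almost wholly inside one another, and the controls were the most dispersed. The log2 fold change was −0.25 (SE 0.37, 95% interval −1.0 to 0.50, limma adjusted p = 0.797) in HD* against controls and −0.10 (SE 0.37, interval −0.86 to 0.65) in LD* against controls, so that differences of up to about 1 on the log2 scale were within the error. Leaving out 1 animal moved the first of these between −0.47 (without control 8) and −0.08 (without control 3).

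For the 2-AG synthases, *DAGLA* had medians of 38.4, 42.1 and 40.1 TPM in controls, LD* and HD*, and *DAGLB* had medians of 22.8, 25.2 and 21.9 TPM. Their log2 fold changes in HD* against controls were −0.02 (SE 0.17) and 0.04 (SE 0.19), and in LD* against controls 0.16 and 0.14. None was larger than its error.

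Among the 2-AG hydrolases, *MGLL* had medians of 140, 124 and 114 TPM in controls, LD* and HD*, *ABHD6* of 59.2, 58.4 and 57.1 TPM, and *ABHD12* of 235, 220 and 235 TPM. The log2 fold changes in HD* against controls were −0.10 (SE 0.16) for *MGLL*, −0.23 (SE 0.16, limma adjusted p = 0.706) for *ABHD6* and 0.04 (SE 0.12) for *ABHD12*. Without HD* 8 the *ABHD6* value was −0.11 and the *MGLL* value −0.22. The interval for *ABHD12*, −0.21 to 0.29, was the narrowest among the 8 genes. *ABHD12* overlaps *PYGB*, a glycogen phosphorylase gene, on a RefSeq map of another rhesus assembly, and the strand of the libraries is described differently in the sources, so some of its reads could belong to that neighbour. On the same map *MGLL* overlaps a protein-coding gene (LOC706606) and noncoding genes. *DAGLA*, *DAGLB* and *NAPEPLD* overlap noncoding genes or a pseudogene, and *FAAH* was not found there.

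The anandamide enzymes showed the largest negative and the largest positive estimate in this comparison. *NAPEPLD* was 7.19 TPM in the lowest control, 16.5 TPM at the median and 19.1 TPM in the highest, against 5.76, 12.2 and 17.1 TPM in HD* and 8.81, 12.1 and 21.0 TPM in LD*. Most drinkers lay under the control median, but the ranges overlapped. The log2 fold change was −0.39 (SE 0.19, 95% interval −0.79 to 0.01, limma adjusted p = 0.706) in HD* and −0.24 (SE 0.19) in LD*. *FAAH* had medians of 95.5, 114 and 105 TPM in controls, LD* and HD*, with log2 fold changes of 0.14 (SE 0.15) in HD* and 0.17 (SE 0.15) in LD* against controls.

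Between HD* and LD* the 8 log2 fold changes ran from −0.18 (*DAGLA*) to 0.05 (*ABHD12*), with limma adjusted p of 0.937 or more. Over the 8 genes, the median log2 fold change was −0.06 in HD* against controls, −0.05 in LD* against controls and −0.12 in HD* against LD*, beside −0.12, −0.03 and −0.08 over all genes tested. Estimates were below 0 for 5, 5 and 7 of the 8 genes, beside 77.8%, 58.1% and 73.3% of all genes. Rescaling the TPM by TMM, a trimmed mean of log ratios between libraries, moved the median of all genes in HD* against controls to 3.97e-05, so the members' values there stand beside a shift of all genes by −0.12. HD* 8 had the lowest TMM factor, 0.69, with HD* 6 next at 0.83. Without HD* 8, and without rescaling, the median of all genes in HD* against controls was −0.06. Without control 6, limma again called 0 genes in either drinking group against controls (588 and 245 at an unadjusted p under 0.05), and *FAAH* came down to 0.03 in HD* and 0.05 in LD*.

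**Figure D2:**
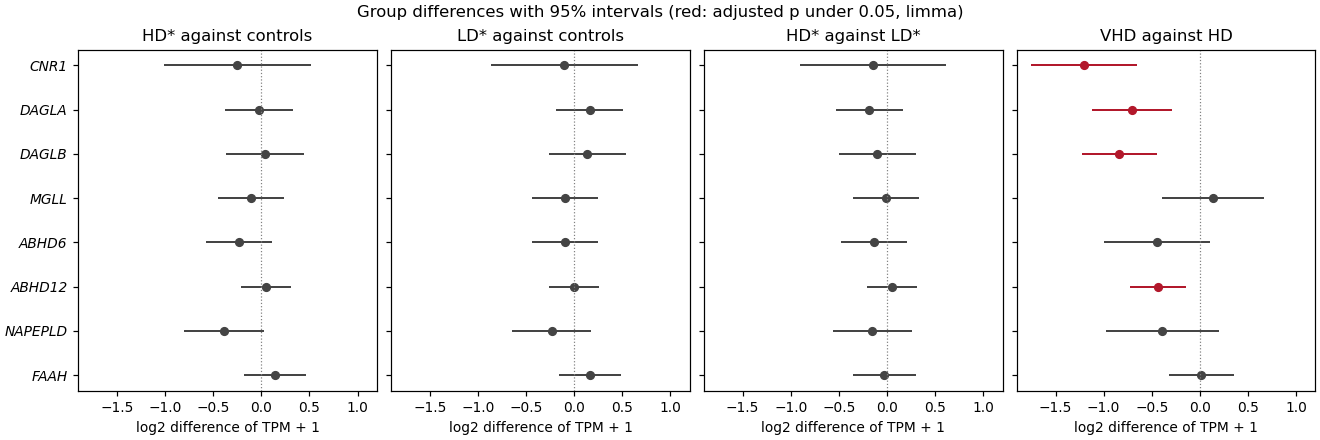
Log2 difference in TPM + 1 (horizontal axes) for each gene in 4 comparisons, with limma's 95% intervals, red where the adjusted p was under 0.05. The first 3 comparisons hold no red interval, and in VHD against HD those of *CNR1* (−1.20), *DAGLB* (−0.84), *DAGLA* (−0.70) and *ABHD12* (−0.43) are red.

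The wider pathway was followed with 21 other endocannabinoid genes in 6 roles, 17 of which averaged 1 TPM or more. *CNR2*, *GPR55*, *PLA2G4E* and *PTGS2* were under that level. In the 3 comparisons of the groups, in the order given above, 0 of the 17 passed an adjusted p of 0.05 in limma, and 2, 1 and 1 had an unadjusted p under 0.05. Their median log2 fold changes were −0.11, −0.0043 and −0.05. *PLCB1*, which the paper lists as lower in HD* than in controls, was at −0.07 (SE 0.31) in that comparison. In HD* against controls the highest expressed gene of each role had a log2 fold change of −0.31 (*PPARA*, a nuclear receptor for fatty acid amides), 0.0073 (*GDE1*, a phosphodiesterase of an alternative anandamide route), −0.26 (*NAAA*, a lysosomal amidase), 0.14 (*FABP3*, a fatty acid carrier), 0.0044 (*CNRIP1*, a CB1 binding protein) and −0.13 (*GNAO1*, a G protein alpha subunit).

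HD* and control animals met only in cohorts 5 and 7a, and LD* and control animals only in 7a and 7b. limma called 0 of 13637 genes within any cohort. At an unadjusted p under 0.05 it called 0 of the 8 members, beside 0.748% (cohort 5) and 4.00% (7a) of all genes in HD* against controls, 2.41% (7a) and 4.09% (7b) in LD* against controls and 4.95% (7a) in HD* against LD*. *CNR1* was lower by 0.85 on the log2 scale in HD* than in controls of cohort 5 (−0.85, SE 0.51), where the 3 controls measured 39.2, 72.8 and 74.6 TPM. In cohort 7a the same difference was 0.04 (SE 0.58), with controls at 10.3 and 48.3 TPM. The effects in the 2 cohorts were not shown to differ (interaction 0.89, SE 0.77, limma adjusted p = 1.00), and 2.30% of all genes had an unadjusted p under 0.05 for that interaction.

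*FAAH* pointed one way in cohort 5 (−0.22, SE 0.22) and the other in cohort 7a (0.38, SE 0.25), with an interaction of 0.60 (SE 0.33, limma adjusted p = 1.00). *NAPEPLD* was negative in both, at −0.36 (SE 0.30) and −0.22 (SE 0.34), as was *ABHD6* at −0.04 (SE 0.25) and −0.32 (SE 0.29). In LD* against controls, *FAAH* was 0.50 (SE 0.26) in cohort 7a and 0.29 (SE 0.23) in 7b, and *MGLL* was −0.44 (SE 0.28) in 7a and 0.37 (SE 0.25) in 7b. With cohort as a term in the model, 0% of genes passed an adjusted p of 0.05 for cohort itself and 8.36% an unadjusted one. *CNR1* came closest of the 8 (F = 2.72, limma adjusted p = 0.540). Its mean was 47.6 ± 22.4 TPM in cohort 5 (SD, n = 7), 27.0 ± 13.6 TPM in 7a (n = 9) and 28.2 ± 12.2 TPM in 7b (n = 6).

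The second question was whether VHD and HD animals, which together make up HD*, differed. They did for 4 of the 8 genes, all lower in VHD than in HD animals, among 14.6% of all genes called and 11.4% called lower (1997, of which 1556 were lower and 441 higher in VHD, or 1416 and 1180 after TMM rescaling). The 4 were *CNR1*, both 2-AG synthases and *ABHD12*. The genes for the main degrading enzymes, *MGLL* and *FAAH*, did not pass the test. Estimates were below 0 for 6 of the 8 genes, beside 65.2% of all genes, and the median over the 8 was −0.44. The paper had made the same contrast, at a stricter threshold than the one used here. It reported genes in both directions, more of them higher in HD animals, with synaptic annotations for that set. It adds that independent replication is needed.

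*CNR1* measured 28.5, 42.8, 44.8 and 58.9 TPM in HD animals. The VHD animals had 13.8, 15.5, 17.1 and 27.5 TPM. All VHD values were therefore under the lowest HD value, the nearest by a narrow margin. The log2 fold change was −1.20 (SE 0.25, limma adjusted p = 0.0115), which left VHD animals at 0.434 of the HD level. Within cohorts, each with 2 animals of either kind, the difference was −1.27 in cohort 5 and −1.14 in cohort 7a.

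*DAGLB* measured 24.7, 28.1, 30.2 and 35.5 TPM in HD and 14.2, 14.5, 16.7 and 19.0 TPM in VHD animals, a log2 fold change of −0.84 (SE 0.17, limma adjusted p = 0.0118). *DAGLA* measured 41.8, 43.8, 45.7 and 52.2 TPM in HD and 21.6, 23.6, 29.8 and 38.5 TPM in VHD animals (−0.70, SE 0.19, adjusted p = 0.0292). Neither synthase overlapped between the groups, and the difference was larger in cohort 7a (−1.08 for both) than in cohort 5 (−0.59 for *DAGLB* and −0.33 for *DAGLA*), a contrast that was not tested.

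*ABHD12* measured 245, 252, 276 and 289 TPM in HD and 177, 177, 207 and 226 TPM in VHD animals, again without overlap. Its log2 fold change was −0.43 (SE 0.13, limma adjusted p = 0.0426), with −0.46 in cohort 5 and −0.41 in cohort 7a. Values failed to overlap between HD and VHD for 23.3% of all genes, 17.9% being lower in VHD, beside these 4 of the 8 members. After TMM rescaling *CNR1* (−1.01, adjusted p = 0.0168), *DAGLB* (−0.64, 0.0208) and *DAGLA* (−0.51, 0.0418) passed and *ABHD12* did not (−0.23, 0.423). The median of all genes was −0.17 before and 0.0049 after that rescaling. Without HD* 8, and without rescaling, it was −0.07.

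The other 4 genes did not pass. *ABHD6* was −0.45 (SE 0.25, limma adjusted p = 0.227) and *NAPEPLD* −0.39 (SE 0.26, 0.324). For *ABHD6* the low values were those of the 2 VHD animals of cohort 7a, 28.1 and 35.9 TPM against 60.5 and 64.4 TPM in HD animals of that cohort, while in cohort 5 the VHD animals had 53.7 and 69.9 TPM and the HD animals 49.2 and 70.7 TPM. *MGLL* measured 108, 114, 114 and 225 TPM in VHD animals against 102, 104, 124 and 166 TPM in HD animals (0.14, SE 0.24), and its difference was −0.36 in cohort 5 and 0.64 in cohort 7a. *FAAH* was 103 ± 18.6 TPM in HD and 103 ± 9.74 TPM in VHD animals (SD, n = 4 each), a difference of 0.01 (SE 0.15) with an interval of −0.31 to 0.34.

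The calls in this comparison rested on few animals. Leaving out 1 animal at a time changed the number of genes called from 476 (without HD* 6) to 4651 (without HD* 4). It left *CNR1* past the threshold in all cases except without HD* 6 (adjusted p = 0.0531), and *DAGLB* except without HD* 6 (0.0531) or HD* 7 (0.0502). *DAGLA* passed only without HD* 1, HD* 4 or HD* 8, and *ABHD12* only without HD* 4 or HD* 8. Without HD* 4, *ABHD6* (−0.67, limma adjusted p = 0.0291) and *NAPEPLD* (−0.64, 0.0260) passed too.

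Markers of striatal projection neurons moved with the same split. In VHD against HD, 9 of 10 such markers passed as lower and 0 as higher, with a median log2 fold change over the 10 of −1.12. The exception among the markers was *TAC1* (−0.06, limma adjusted p = 0.835). *PENK*, the enkephalin precursor and the most abundant of them, was 3734 ± 503 TPM in HD and 1856 ± 480 TPM in VHD animals (SD, n = 4 each). The summed markers ran from 9266 to 10860 TPM in HD and from 3518 to 6257 TPM in VHD animals, without overlap, and none of the 10 was near 0 in any group mean. Among markers of other cells, 1 of 8 for oligodendrocytes, 1 of 5 for astrocytes and 2 of 5 for microglia passed as higher in VHD. Over all genes, 441 of 13637 did so. The median log2 fold change was below 0 for the oligodendrocyte list (−0.21) and above 0 for the astrocyte (0.36) and microglia (0.40) lists. Markers of cortical excitatory neurons, interneurons and endothelium passed in 0 cases, with list medians of −1.20, −0.16 and −0.32.

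With the striatal marker score as a covariate, an alternative chosen after the markers had been seen, 0 genes passed in limma and 1447 had an unadjusted p under 0.05. The difference in *CNR1* was then −1.86 (SE 0.65, limma adjusted p = 0.453), in *DAGLB* −0.84 (SE 0.48), in *DAGLA* −0.36 (SE 0.50) and in *ABHD12* −0.06 (SE 0.33). The score itself did not overlap between HD and VHD, and the SE of the *CNR1* difference rose from 0.25 to 0.65 in that fit. Without the libraries with *SLC17A7* above 80 TPM, 2 of them HD, the number of genes called fell to 25, none of them a member, with *CNR1* at −1.16 (adjusted p = 0.145) and *DAGLB* at −0.69 (0.227). The part of neuronal content in the 4 differences was not tested further.

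**Figure D3:**
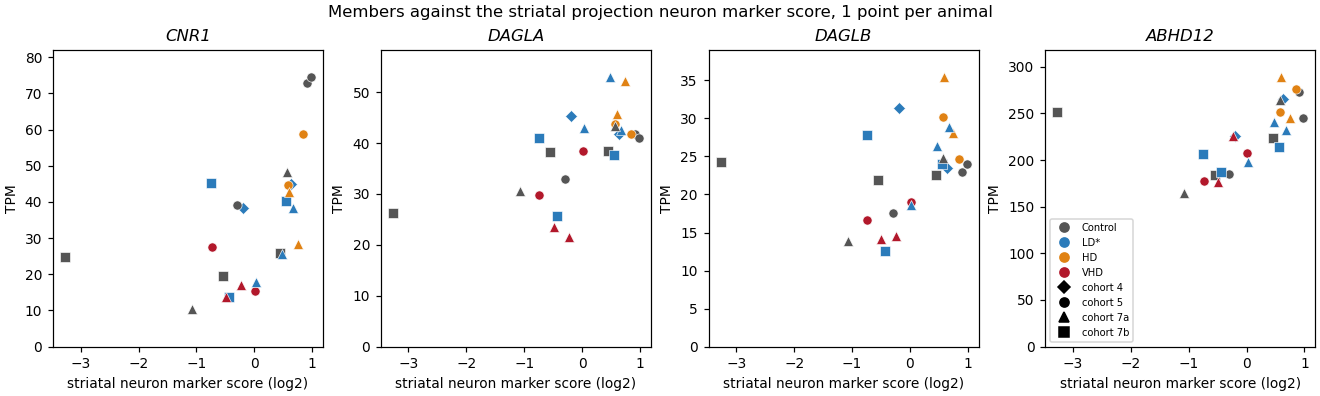
TPM (vertical axes, from 0) of the 4 genes that differed between HD and VHD, against the striatal projection neuron marker score (horizontal axes, mean centred log2(TPM + 1) of 10 markers), with 1 point per animal coloured by group. HD animals (0.57 to 0.85) and VHD animals (−0.74 to 0.01) occupy separate ranges of the score, and control 6 lies alone at −3.27.

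Of the 17 other endocannabinoid genes tested, 3 were lower and 0 higher in VHD than in HD animals, a share not far from the 11.4% of all genes called lower, and the median over the 17 was 0.02. *GNAO1*, the alpha subunit that couples CB1 and many other receptors to their effectors, was 386 ± 22.7 TPM in HD and 209 ± 34.8 TPM in VHD animals (SD, n = 4 each), a log2 fold change of −0.89 (limma adjusted p = 0.00489). The other 2, named here after their values were seen, were *PLCB1*, a phospholipase C that supplies the diacylglycerol for 2-AG (71.8 ± 7.18 against 31.7 ± 12.2 TPM, −1.23, adjusted p = 0.00859), and *SGIP1*, which binds CB1 and slows its internalization (42.3 ± 4.18 against 19.6 ± 8.13 TPM, −1.16, adjusted p = 0.0141). *CNRIP1*, the more abundant CB1 binding protein, was −0.29 (adjusted p = 0.145). *GDE1* was −0.26, *NAAA* 0.23, *PPARA* 0.28 and *FABP3* −0.0017, with adjusted p of 0.182 or more.

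Among the 16 drinkers, none of the 8 genes followed daily ethanol intake at an adjusted p under 0.05, and neither did any other gene (0% of 13637 in limma, 6.65% at an unadjusted p under 0.05, with 0 members). The slope for *CNR1* was −0.27 log2 units per g/kg (SE 0.17, 95% interval −0.61 to 0.08, limma adjusted p = 0.512). *DAGLB* followed at −0.16 (SE 0.11) and *DAGLA* at −0.15 (SE 0.10). The other 5 slopes lay between −0.10 (*ABHD6*) and 0.04 (*FAAH*). The median over the 8 genes was −0.09, beside −0.07 over all genes, and 6 of 8 slopes were below 0, beside 72.5% of all genes.

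With cohort as a covariate the slopes steepened to −0.56 (SE 0.30, limma adjusted p = 0.213) for *CNR1*, −0.44 (SE 0.17, 0.135) for *DAGLA*, −0.37 (SE 0.21, 0.230) for *DAGLB* and −0.35 (SE 0.16, 0.169) for *ABHD6*, still short of the threshold. The relation was not a steady one. LD* animal 5, with the highest intake in its group (2.07 g/kg), had 13.6 TPM of *CNR1* and 12.6 TPM of *DAGLB*, the lowest of either gene among drinkers, while the 4 HD animals at 2.74 to 3.09 g/kg had 28.5 to 58.9 TPM of *CNR1*.

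**Figure D4:**
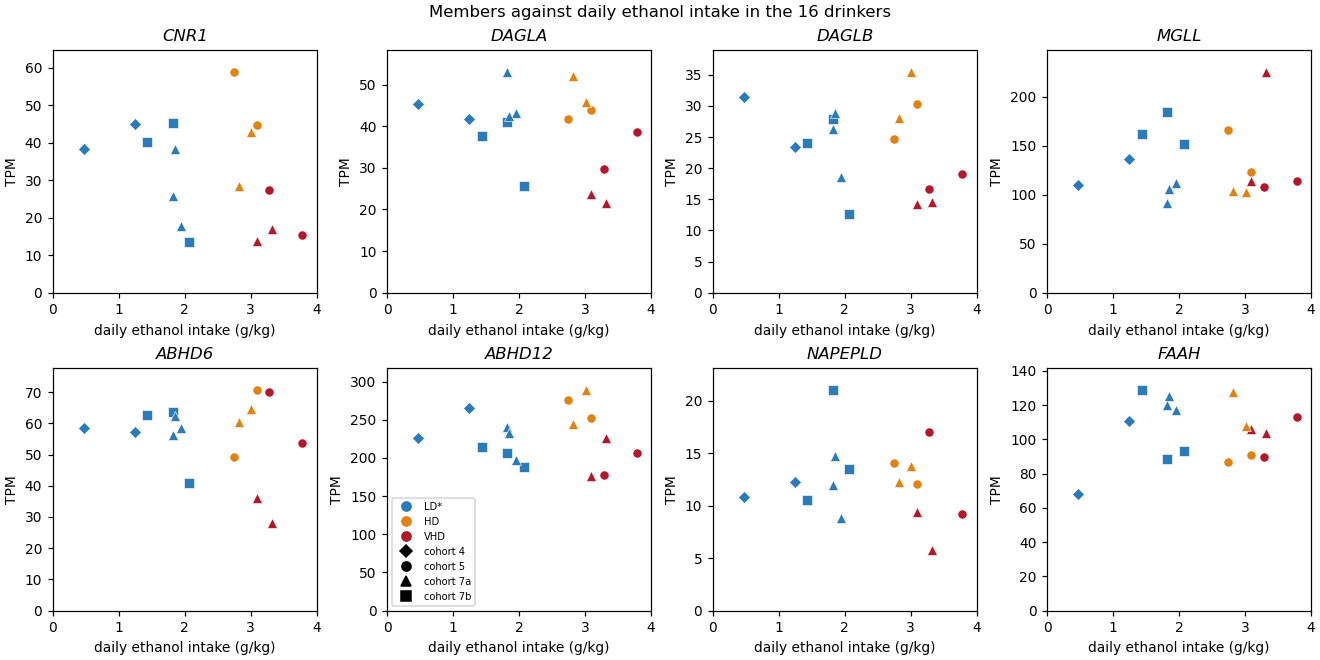
TPM (vertical axes, from 0) of the 8 genes against daily ethanol intake (g/kg, horizontal axes) in 16 drinkers, with 1 point per animal, coloured by group and with symbols for cohort. *CNR1* and *DAGLB* fall between the HD animals (up to 3.09 g/kg) and the VHD animals (from 3.09 g/kg), with low values also in LD* animals near 2.07 g/kg.

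Ratios of a pair of genes within an animal were taken as the difference of their log2(TPM + 1). This reduces the dependence on scaling between libraries but, because of the added 1, does not remove it. The log2 ratio of *NAPEPLD* to *FAAH*, synthesis to breakdown of anandamide, ran from −3.19 through a median of −2.59 to −1.45 in controls. LD* animals ran from −3.59 through −3.04 to −2.02, and HD* animals from −3.96 through −3.08 to −2.33. The ranges overlapped. The mean difference was −0.53 in HD* against controls (exact two-sided permutation test over 12870 assignments, p = 0.0671, 0.604 after Benjamini-Hochberg adjustment over 9 tests) and −0.40 in LD* against controls (exact permutation p = 0.150, adjusted 0.675). Without control 6 these differences were −0.37 and −0.24.

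The log2 ratio of *DAGLA* to *DAGLB* differed by −0.06 between HD* and controls, by 0.02 between LD* and controls and by −0.08 between HD* and LD*. That of *DAGLA* to *MGLL*, synthesis to breakdown of 2-AG, differed by 0.08, 0.25 and −0.17. All 9 adjusted p were 0.604 or more. The *DAGLA* to *MGLL* ratio was nonetheless more dispersed in drinkers, with an SD of 0.74 in HD*, 0.57 in LD* and 0.24 in control animals, a contrast in spread that was not tested. The HD* value rested in part on HD* 8, whose ratio was −3.33, and the SD of the other 7 HD* animals was 0.45.

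Over the 24 animals the 2 synthases varied together more closely than any other pair among the 8 genes. For *DAGLA* and *DAGLB* Pearson's r of log2(TPM + 1) was 0.79 (Spearman's rho 0.80), with 0.90, 0.84 and 0.65 in cohorts 5, 7a and 7b. *ABHD6* and *NAPEPLD* reached 0.72, *DAGLB* and *ABHD12* 0.72, *CNR1* and *ABHD12* 0.71 and *CNR1* and *DAGLB* 0.69. *FAAH* reached at most 0.37 (*DAGLA*). For *MGLL* r lay between −0.44 (*ABHD6*) and 0.11 (*CNR1*) over all animals, but the cohorts differed in sign for 6 of its 7 pairs. In cohorts 5, 7a and 7b it was 0.38, −0.74 and 0.56 with *DAGLA*, 0.70, −0.33 and 0.41 with *CNR1*, and −0.07, −0.47 and 0.76 with *FAAH*, while with *ABHD6* it was −0.51, −0.67 and −0.43. In all, 21 of 28 pairs were above 0. Values of 1 animal come from 1 library of a mixed tissue with a fixed total, so these coefficients describe shared variation of libraries and are given without a test.

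Each gene was also set against scores of 7 cell type marker lists, 56 relations in all. Of these, 14 passed a Benjamini-Hochberg adjusted p of 0.05 by Pearson's r and 13 by Spearman's rho (100000 permutations). The share of all genes that would pass against the same scores was not computed, so these counts cannot be called particular to the members. The permutations took no account of group or cohort. The lists differed in length, from 10 genes for striatal projection neurons to 3 measured genes for endothelium (*CLDN5*, *FLT1* and *VWF*). *FAAH* followed the striatal projection neuron score most closely (r = 0.78, permutation p = 7e-05, adjusted 0.0028; rho = 0.62, p = 0.00179, adjusted 0.00911), with r = 0.54 without controls 6 and 8 and r of 0.44, 0.77 and 0.99 in cohorts 5, 7a and 7b. It ran against the astrocyte score (r = −0.72, permutation p = 0.0001, adjusted 0.0028; rho = −0.69, p = 0.00038, adjusted 0.00683; −0.67 without HD* 4 and control 6), at −0.57, −0.67 and −0.89 within cohorts. It also ran against the microglia score (r = −0.60, permutation p = 0.00199, adjusted 0.0139; rho = −0.62, p = 0.00148, adjusted 0.00911; −0.73 without control 5 and HD* 6), at −0.60, −0.67 and −0.46 within cohorts. Against the cortical excitatory neuron score it passed by rank only (r = −0.34, permutation p = 0.104, adjusted 0.224; rho = −0.53, p = 0.00799, adjusted 0.0344; r = −0.32 without control 2 and LD* 4), at −0.48, −0.43 and −0.05 within cohorts.

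*DAGLA* followed the striatal score with r = 0.61 (permutation p = 0.00152, adjusted 0.0139; rho = 0.64, p = 0.00101, adjusted 0.00911), 0.60 without controls 6 and 8, and 0.92, 0.75 and 0.59 within cohorts 5, 7a and 7b.

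*CNR1* was related to 3 scores at a similar strength. It followed the endothelial score (r = 0.53, permutation p = 0.00778, adjusted 0.0372; rho = 0.56, p = 0.00492, adjusted 0.0230; 0.53 without HD* 4 and LD* 6), at 0.81, 0.59 and 0.25 in cohorts 5, 7a and 7b. It ran against the microglia score by Pearson's r (−0.52, permutation p = 0.0093, adjusted 0.0372), though not by rank (rho = −0.47, p = 0.0211, adjusted 0.0740), at −0.43 without control 5 and HD* 6 and at −0.59, −0.67 and −0.39 within cohorts. With the striatal score r was 0.51 (permutation p = 0.0081, adjusted 0.0372; rho = 0.66, p = 0.00059, adjusted 0.00683) and 0.62 without controls 6 and 8, at 0.74 and 0.91 in cohorts 5 and 7a but 0.14 in 7b, where control 6 belongs.

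*ABHD12* was related to 4 scores. It ran against the microglia score (r = −0.68, permutation p = 0.00032, adjusted 0.00532; rho = −0.66, p = 0.00058, adjusted 0.00683; −0.60 without control 5 and HD* 6), at −0.77, −0.76 and −0.34 within cohorts 5, 7a and 7b. It followed the endothelial score (r = 0.66, permutation p = 0.00038, adjusted 0.00532; rho = 0.66, p = 0.00061, adjusted 0.00683; 0.62 without HD* 4 and LD* 6), at 0.93, 0.58 and 0.45. With the astrocyte score r was −0.59 (permutation p = 0.00261, adjusted 0.0162; rho = −0.62, p = 0.00152, adjusted 0.00911; −0.67 without HD* 4 and control 6), at −0.88, −0.70 and 0.32. With the striatal score it passed by rank only (r = 0.44, permutation p = 0.0243, adjusted 0.0851; rho = 0.74, p = 8e-05, adjusted 0.00448), with r = 0.85 without controls 6 and 8, at 0.96 and 0.88 in cohorts 5 and 7a and −0.52 in 7b.

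The remaining 4 genes each passed with 1 list. *MGLL* ran against the interneuron score (r = −0.65, permutation p = 0.0006, adjusted 0.00672; rho = −0.63, p = 0.00143, adjusted 0.00911; −0.46 without control 6 and HD* 8), at −0.82, −0.74 and −0.75 within cohorts. *NAPEPLD* followed the oligodendrocyte score (r = 0.60, permutation p = 0.00196, adjusted 0.0139; rho = 0.62, p = 0.00171, adjusted 0.00911; 0.52 without controls 6 and 7), at 0.35, 0.64 and 0.77 within cohorts. *ABHD6* was related to the interneuron score (r = 0.52, permutation p = 0.00898, adjusted 0.0372; rho = 0.44, p = 0.0338, adjusted 0.105), but r fell to 0.17 without control 6 and HD* 8, on which the relation rested. For *DAGLB* the endothelial score gave r = 0.57 (permutation p = 0.00371, adjusted 0.0208; rho = 0.44, p = 0.0316, adjusted 0.104; 0.55 without HD* 4 and LD* 6), at 0.87, 0.46 and 0.70 within cohorts.

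**Figure D5:**
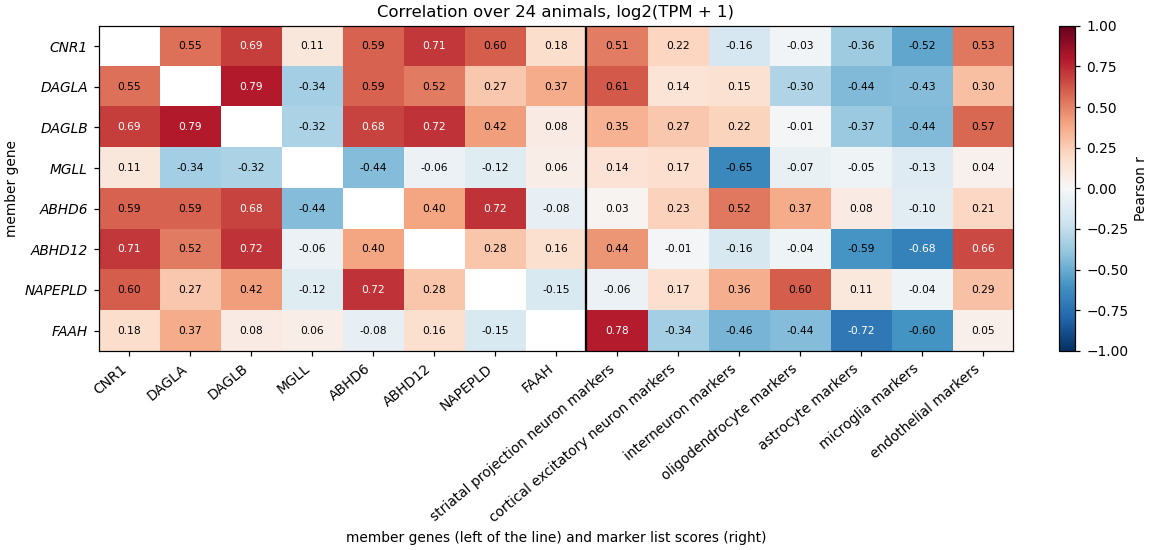
Pearson's r of log2(TPM + 1) over 24 animals between the 8 genes (left of the line) and between each gene and 7 marker list scores (right), printed in each cell and coloured from −1 (blue) to 1 (red). *DAGLA* with *DAGLB* (0.79) is the highest pair, *FAAH* with the striatal score (0.78) the highest marker relation, and over all animals the *MGLL* row is close to 0 or negative for the other genes.

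The genes most alike to each member in profile, by Pearson's r over the 24 animals among the 13637 genes tested, were not members. For *CNR1* they were *ZNF385B*, *HMGCS1* and *FAM135B*, all with r = 0.92. For *DAGLA* they were *SPTBN4* (0.95), *RAPGEFL1* and *CACNA1C* (0.94 each), and for *DAGLB* *ATP6V0C* (0.96), *TMEM59L* and *TMEM39B* (0.94 each). *ABHD6* had *C16orf62* (0.95), *BFAR* (0.93) and *KIAA0556* (0.92), and *NAPEPLD* had *SECISBP2L* (0.95), *RIF1* (0.95) and *CDC42BPA* (0.94). *ABHD12* had *TRAPPC9*, *ACTB* and *AVPI1* (0.91 each), and *FAAH* had *LIMD2* (0.89) and *LAMP5* (0.85).

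*MGLL* differed in having no close companion. Its most alike genes were *RIMS4* (0.75), *GGN* (0.74) and *POU6F1* (0.72), and 0 genes exceeded r = 0.8. That count was 33 for *FAAH*, 98 for *ABHD12*, 373 for *NAPEPLD*, 580 for *CNR1*, 931 for *ABHD6*, 939 for *DAGLB* and 1137 for *DAGLA*.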

How the data were processed

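RNA of the NAcc core was sequenced by the authors from polyA-selected libraries, aligned to MacaM with STAR 2.5.2b (at most 2 mismatches, unique reads), counted on genes with HTSeq 0.6.1p1 and tested with DESeq2. The deposited values are TPM made by the authors, although their name speaks of normalized counts, and they hold no columns of comparisons. How counts became TPM is not given in the sources used here, depth per sample is unknown, and no counting error can be given. Totals ran from 999998 to 1000000, pairs of animals correlated between 0.940 and 0.995, 0 pairs were identical, and 27 symbols had become dates. The sources differ on whether libraries were stranded and paired. Groups, cohorts and intake came from the labels, with replicate numbers given in order.

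Values were tested as log2(TPM + 1) with limma 3.58.1 in R 4.3.3 (empirical Bayes with trend, genes averaging 1 TPM or more, Benjamini-Hochberg over all genes). HD*, LD* and controls shared 1 model of 24 animals, VHD and HD 1 of 8 animals, and intake 1 of 16 drinkers. A fold change on this scale understates that of low genes. Scores of marker lists are means of centred log2(TPM + 1). Ratios were tested by exact permutation in Python 3.11.15 (scipy 1.17.1, pandas 2.3.3, numpy 2.4.6). Plots used matplotlib 3.10.9. The tests were tested on simulated data. The members and lists were chosen with earlier results of these data known. Named genes are the members, the 3 genes most alike to each, and the most abundant gene in each other role or marker list. One gene that this rule names is not reported here. Alternatives were pseudocounts of 0.1 and 8 TPM, a filter of 10 TPM or none, TMM rescaling (30% of M and 5% of A trimmed), cohort or oligodendrocyte score as covariate, only the compared groups, permutation within cohorts and each animal left out. A further pair was added after seeing the data, the striatal score as covariate and omission of libraries with *SLC17A7* above 80 TPM. In a RefSeq annotation of another assembly, T2T-MMU8v2.0, 7 of the 8 symbols were found, all but *FAAH*. Its positions served only to find genes that overlap a member, and no sequences were used here.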

Additional observations from a re-analysis of the deposited data

Results flagged for a closer look

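Of 49 groups of values examined, 4 held an animal that stood far from the rest of its group, at a level that chance reaches in about 5% of groups. *MGLL* in VHD animal HD* 8 was 225 TPM, with the other 3 VHD animals between 108 and 114 TPM. *ABHD6* in LD* animal 5 was 41.0 TPM, with the other LD* animals between 56.1 and 63.6 TPM. *NAPEPLD* in control 8 was 7.19 TPM, with the other controls between 13.7 and 19.1 TPM. The log2 ratio of *DAGLA* to *DAGLB* in control 6 was 0.12, with the other controls between 0.74 and 1.09.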

How the results depend on the processing

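The number of genes called in VHD against HD moved from 1997 to 0 with the striatal score as a covariate, to 25 without the libraries high in *SLC17A7*, and to between 476 and 4651 with 1 animal left out. Counts of 0 in the other comparisons were 0 under every alternative run. Estimates near 0 changed sign, and none of these passed a test. TMM rescaling gave 0.11 (*DAGLA*) and 0.031 (*MGLL*) in HD* against controls, 0.042 (*ABHD12*) in LD* against controls, 0.077 (*MGLL*) and 0.061 (*FAAH*) in HD* against LD*, and 0.049 (*ABHD12*) for intake. Cohort as a covariate gave 0.091 (*CNR1*, LD* against controls), 0.032 (*MGLL*, HD* against LD*) and −0.0030 (*FAAH*, intake). The oligodendrocyte score gave −0.016 (*FAAH*, VHD against HD) and −0.0065 (*MGLL*, intake), and the striatal score −0.028 (*DAGLB*) and −0.0065 (*ABHD12*) in HD* against controls and −0.0023 (*MGLL*, intake). Without the libraries high in *SLC17A7* the values were −0.16 (*DAGLB*) and −0.035 (*ABHD12*) in HD* against controls, 0.0042 (*CNR1*) and 0.040 (*ABHD12*) in LD* against controls, 0.068 (*MGLL*) and −0.075 (*ABHD12*) in HD* against LD*, −0.032 (*FAAH*) in VHD against HD and −0.088 (*FAAH*) for intake. The cause was not tested.

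Of the 40 estimates for the members, leaving out 1 animal changed the sign of 13, moved a further 20 by over 1.5 times and kept 7 within that. The 13 ran, in HD* against controls, from −0.0997 to 0.0768 (*DAGLA*), −0.0615 to 0.119 (*DAGLB*) and −0.0151 to 0.0960 (*ABHD12*), in LD* against controls from −0.329 to 0.0624 (*CNR1*) and −0.0634 to 0.0400 (*ABHD12*), in HD* against LD* from −0.129 to 0.0621 (*MGLL*), −0.000996 to 0.0998 (*ABHD12*) and −0.113 to 0.0166 (*FAAH*), in VHD against HD from −0.113 to 0.285 (*MGLL*) and −0.0632 to 0.120 (*FAAH*), and for intake from −0.0660 to 0.0356 (*MGLL*), −0.0450 to 0.00393 (*ABHD12*) and −0.0768 to 0.0738 (*FAAH*). Those that moved without a change of sign included, in VHD against HD, *ABHD6* (−0.24) and *NAPEPLD* (−0.17) without HD* 8. The ratio of *NAPEPLD* to *FAAH* ran from −0.634 to −0.369 in HD* against controls (exact permutation p from 0.0261 to 0.136), from −0.535 to −0.243 in LD* against controls and from −0.232 to 0.00798 in HD* against LD*. That of *DAGLA* to *DAGLB* in LD* against controls ran from −0.0669 to 0.0720, and that of *DAGLA* to *MGLL* from −0.0391 to 0.297 in HD* against controls and from −0.297 to 0.0454 in HD* against LD*. With no filter *DAGLA* had a limma adjusted p of 0.0544 in VHD against HD. No paired analysis was possible because each group was made up of different animals. Without read counts, no limit of detection by depth can be given, and with 4 animals in HD and VHD each, a difference is known only for those animals.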
